A study of Saccharomyces cerevisiae with 16 samples.

Results

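Trimethylation of histone H3 at lysine 4 (H3K4me3) was compared between budding yeast that carried HPRT1R, a synthetic reversed form of the human HPRT1 locus, on a yeast artificial chromosome (YAC) and yeast that carried it inside chromosome XI. The libraries were chosen by sample title, which gave 2 HPRT1R YAC and 2 HPRT1R integrated H3K4me3 libraries, 4 of the 16 samples in the series and 4 of the 8 that came with peak lists. The other 4 peak lists are of strains with synthetic HPRT1 itself, and give a second, separately labelled pair of groups with the same contrast. The stated purpose of the series was exploratory: to learn if the synthetic DNA is transcribed in yeast, relative to the host genome.

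All strains were BY4741, a haploid laboratory strain of mating type a that lacks working HIS3, LEU2, MET17 and URA3. The genotype label was synHPRT1R for the 4 HPRT1R libraries and synHPRT1 for the other 4. YAC strains were grown at 30 °C in SC-Leu, a synthetic medium without leucine that keeps cells under selection for the plasmid-like chromosome, and integrated strains in YPD, a rich medium. Configuration and medium therefore cannot be told apart in any value below. Cultures were started at an optical density of 0.1 and grown for 6 hours to about 0.6. H3K4me3 was mapped by CUT&RUN, in which an antibody (0.5 µg here) tethers a nuclease that cuts out the bound chromatin, although the titles name the assay ChIP. Whether replicates came from separate cultures or clones, where on chromosome XI the insert lies and which vector carried the YAC were not given in the labels.

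In yeast, H3K4me3 is written by the Set1 complex, COMPASS, which travels with RNA polymerase II early in transcription. The mark therefore sits over the first nucleosomes of transcribed genes, and its presence at a start is commonly read as a trace of recent transcription, not as a measure of the amount of RNA. The mitochondrial genome carries no histones, so peaks called there are not H3K4me3.

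The lists of HPRT1R YAC replicates 1 and 2 held 3463 and 3939 peaks, and those of integrated replicates 1 and 2 held 4021 and 3881. YAC replicate 1 stood apart before any comparison was made. It had the fewest peaks, the highest genome-wide expected pileup (98.9 reads, against 78.0 to 83.3 in the other 3), the lowest median native fold (1.86 against 2.16 to 2.21), and files named by another pattern. Expected pileup is the number of stacked reads that the peak caller took as background, recovered here from its fold and p-value, and fold is the authors' own ratio of observed to expected pileup at the summit. Of the bases under native peaks of either YAC library, 73.0% were shared by both, and for the integrated pair the share was 82.5%. The 4 pairs of 1 YAC and 1 integrated library shared 67.1 to 81.6%, the lower values being those with YAC replicate 1. On native chromosomes, YAC replicate 2 was thus closer to both integrated libraries (80.0 and 81.6%) than to the other YAC library. Among the HPRT1 libraries, the cell line label of YAC replicate 2 names HPRT1R against its title and genotype. The counts of genes with the same or opposite call in HPRT1 are given with and without it. The other HPRT1 group values below include it.

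A gene was called marked in a library when a peak overlapped a 700 bp window around its annotated start, 200 bp before and 500 bp after it. Of 6002 nuclear protein-coding genes, 4533 and 4622 were marked in the YAC libraries and 4631 and 4667 in the integrated libraries. A mark in all 4 libraries was found at 4142 genes (69.0%), and 994 genes (16.6%) had none in any. Most genes thus had the same state on both sides. The 61 genes marked in both YAC and neither integrated library were 1.02% of those tested, and the 85 genes marked in both integrated and neither YAC library were 1.42%. Between single libraries, 507 genes differed between the YAC replicates and 312 between the integrated replicates. The 4 pairs of 1 YAC and 1 integrated library differed at 363 to 674 genes, with a mean of 506. The counts of 61 and 85 are not like these, since they need all 4 libraries to follow the rule. A further 121 genes were marked in both YAC and 1 integrated library, and 266 in both integrated and 1 YAC library. When all lists were trimmed to equal numbers of peaks, the counts were 73 and 58, so that the larger side changed. Since presence in 2 against absence in 2 is the rule itself, no test was made on these counts. Taking HPRT1R YAC replicate 1 away gave 95 and 132 genes, and taking replicate 2 away gave 169 and 304. Without integrated replicate 1 the YAC-only count was 99, and without integrated replicate 2 the counts were 144 and 141. Leaving out a library loosens the rule, so these counts could only rise.

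**Figure D1:**
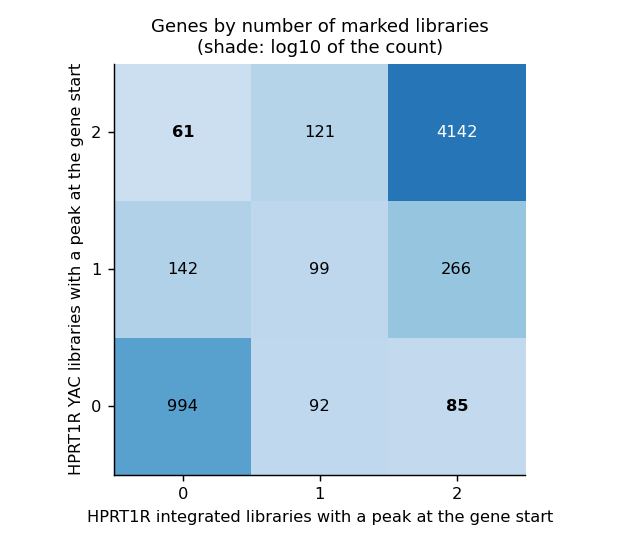
Number of genes by how many of the 2 HPRT1R YAC libraries (vertical axis) and of the 2 integrated libraries (horizontal axis) had a peak at the gene start, with shading by the log10 of the count. The corner counts of 61 and 85 are smaller than the counts of genes at which 1 library differed from its replicate, such as 266 and 142. Those cells count a difference at either replicate, while each corner allows 1 pattern only.

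The genes called on one side were weakly marked there. In each gene the lower of the folds of the marked libraries was taken; its median was 1.52 over YAC-only genes and 1.53 over integrated-only genes, against 1.99 over genes marked in all 4 libraries. Among the native peaks of their own lists these lower folds stood at a median percentile of 9.89 and 7.05, against 51.7 for genes marked in all 4. Only 7 of 61 and 10 of 85 reached a lower fold of 2. At many called genes a peak of the other side also came near. The called peak was the strongest at the start. At 21 of the 61 YAC-only genes (34.4%) and 19 of the 85 integrated-only genes (22.4%), it overlapped a peak of the other side. That peak stopped short of the window, and overlap in 1 marked library was enough for this count. COA2, AFT1 and SEC53, counted here, also had a separate peak at the start in both YAC libraries only. Their calls therefore did not rest on a peak edge alone. A peak of the other side lay within 50 bp of the window at 12 and 14 genes. Of the 16 chromosomes, 15 held a YAC-only gene and 16 an integrated-only gene. Chromosome XII held the most, with 13 YAC-only genes (2.5% of its genes) and 12 integrated-only genes (2.31%), and chromosome IX held 0 YAC-only genes. Of the called genes, 0 YAC-only and 2 integrated-only genes were among the 241 genes within 20 kb of a chromosome end.

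**Figure D2:**
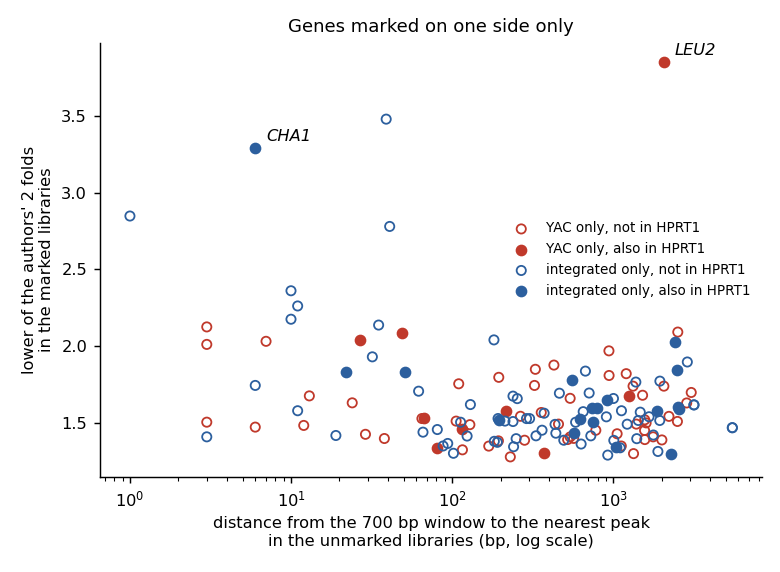
Each point is 1 of the 61 YAC-only (red) or 85 integrated-only (blue) genes, placed by the distance from its window to the nearest peak in the unmarked libraries (bp, log axis) and by the lower of the authors' 2 folds in the marked libraries; filled points had the same call in the HPRT1 libraries. LEU2 stands alone at the upper right, with a lower fold of 3.85 and the nearest peak 2073 bp away, while CHA1 had a peak 6 bp from its window.

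In the HPRT1 libraries the same rule called 39 genes in YAC libraries only (0.65%) and 93 in integrated libraries only (1.55%). These libraries entered neither count above. The same call was made in both sequences at 9 genes on the YAC side, which are 14.8% of the 61 and 23.1% of the 39. Of these 9 genes, 5 lie on chromosome XII, which holds 520 of the 6002 genes and 13 of the 61 YAC-only genes. On the integrated side the same call was made at 18 genes, which are 21.2% of the 85 and 19.4% of the 93. Of these 18 genes, 3 lie on chromosome XII. Opposite calls were made at 4 and 0 genes. With HPRT1 YAC replicate 1 alone on the YAC side of HPRT1, the same call was made at 12 and 22 genes, and opposite calls at 17 and 3. This looser rule called 86 YAC-only and 334 integrated-only genes in HPRT1 among the 6002, against 39 and 93 under the full rule. Most calls thus were not repeated in HPRT1: of the 61 YAC-only genes, 24 were marked in fewer HPRT1 YAC than HPRT1 integrated libraries, 20 in more and 17 in equal numbers. Of the 85 integrated-only genes, 35 were marked in fewer HPRT1 YAC libraries, 10 in more and 40 in equal numbers. Over all 6002 genes 7.91% were marked in fewer and 3.20% in more. No test was made on these overlaps.

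**Figure D3:**
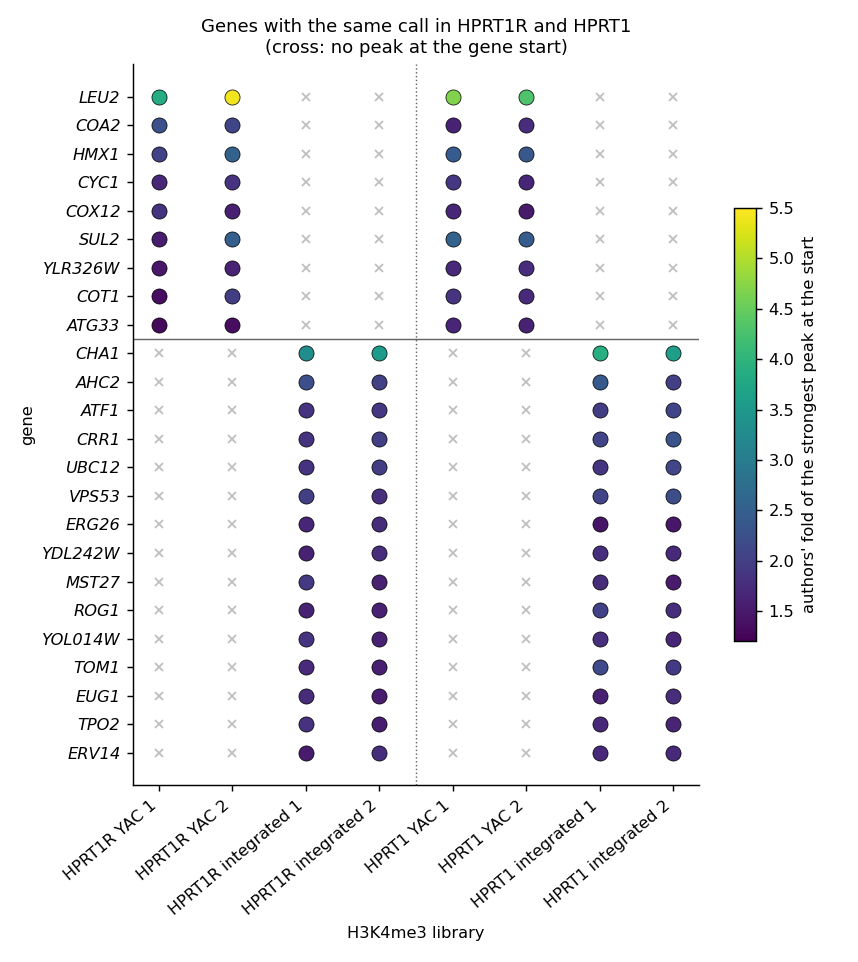
Authors' fold of the strongest peak at the gene start (colour) in each of the 8 H3K4me3 libraries, for the 9 genes called YAC-only and the 15 of 18 genes called integrated-only in both sequences with the highest folds; crosses mark libraries with no peak there. LEU2 has the highest folds of the YAC side (3.85 to 5.41) and CHA1 those of the integrated side (3.29 to 3.90). The CHA1 folds were read at summits upstream of its window.

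LEU2 on chromosome III (91324 to 92418, plus strand; R64, the assembly that sacCer3 names) gave the clearest difference. It encodes beta-isopropylmalate dehydrogenase, an enzyme of leucine synthesis. Its start lay under a peak with a fold of 3.85 in YAC replicate 1 and 5.41 in YAC replicate 2, with summit pileups of 383 and 443 reads. Both stood above percentile 99.9 of their lists. The peaks ran from 91100 to 92504 and from 91100 to 92401, which is most of the gene. No peak lay within 2073 bp of the window in either integrated library. HPRT1 gave the same picture, with folds of 4.68 and 4.29 in the YAC libraries and none in the integrated libraries. BY4741 lacks LEU2 at its native place, and SC-Leu selects cells that carry a working copy. From which copy of LEU2 these reads came was not tested, since no vector sequence was used here. The other markers that BY4741 lacks served as a check of the labels. URA3, of uracil synthesis, and MET17, of methionine synthesis, had no peak at their starts in any of the 8 libraries. HIS3, of which BY4741 keeps part, was marked in all 8, with folds of 2.56 and 2.91 in the HPRT1R YAC libraries and 2.96 and 3.02 in the integrated libraries.

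The rest of branched-chain amino acid synthesis was marked alike on both sides. Of its 12 genes 10 were marked in all 4 libraries, 1 (LEU2) was YAC-only and 1 (BAT2) integrated-only. LEU4, alpha-isopropylmalate synthase and the first committed enzyme of the leucine branch, had folds of 2.80 and 3.09 in YAC and 3.24 and 3.37 in integrated libraries. MET4 had the same folds in all 4 libraries, and to which of the genes this peak belongs was not tested. LEU1, isopropylmalate isomerase, had 1.97 and 2.32 against 2.40 and 2.5, and LEU3, the regulator of the pathway, 1.86 and 2.51 against 2.06 and 2.63. These are ratios within separate lists and were not tested against each other. BAT2, the cytosolic branched-chain aminotransferase, had weak peaks in the integrated libraries only (folds 1.53 and 1.35, percentiles 6.45 and 0.865). It was marked in all 4 HPRT1 libraries, with folds from 1.43 to 1.69, so that the call was not repeated there.

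Among other genes of amino acid and nutrient supply, calls were few on either side. In arginine synthesis 8 of 10 genes were marked in all 4 libraries. ARG3, ornithine carbamoyltransferase, was YAC-only (folds 1.63 and 1.81), and the nearest peak of the integrated libraries was far from its window, at 2863 bp. All 4 HPRT1 libraries marked it, with folds from 1.75 to 1.99. SER3, a phosphoglycerate dehydrogenase of serine synthesis, was YAC-only in HPRT1R (1.39 and 1.82) and was marked in 1 HPRT1 integrated library. All 9 lysine synthesis genes were marked in all 4 libraries. Of 23 amino acid and peptide permease genes 14 were marked in all 4 and 5 in none, and PTR2, a transporter of di- and tripeptides, was integrated-only (1.56 and 1.51). MET2, homoserine acetyltransferase, was integrated-only with unequal folds of 2.53 and 1.51. Its called peak overlapped a YAC peak, and the nearest YAC edge lay 113 bp from the window. PTR2 and MET2 were each marked in 1 HPRT1 YAC library and 0 HPRT1 integrated libraries, so neither call was repeated there.

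SUL2, a sulfate permease, and HMX1, a heme oxygenase that releases iron from heme, were YAC-only in both sequences. Both had an upstream peak in every library that reached the window in YAC libraries only. The upstream SUL2 peak had folds of 1.53 and 2.49 in YAC libraries. Its edge lay 150 bp upstream of the start in both. In the integrated libraries a peak at the same place had folds of 2.58 and 2.53 and stopped 267 and 271 bp upstream, outside the window. A second, weak peak inside the gene touched the window in HPRT1R YAC replicate 2 (fold 1.29) and both HPRT1 YAC libraries (1.39 and 1.46), and in no integrated library. For HMX1 the peak reached to 55 and 35 bp upstream of the start in YAC libraries (folds 2.04 and 2.54) and to 227 and 279 bp in integrated libraries (folds 2.82 and 2.82). Its summit lay far outside the window, 761 and 1016 bp upstream in YAC libraries and 980 and 1016 bp in integrated libraries. Whether the peak belongs to HMX1 or to a neighbouring gene was not tested. In the HPRT1 YAC libraries the HMX1 peak ran 454 and 403 bp into the gene, and in the HPRT1 integrated libraries it stopped 318 and 359 bp upstream. In all 8 libraries the HMX1 peak was present, and what differed was how far it reached toward the gene.

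CHA1, the catabolic serine and threonine deaminase, was the mirror case on the integrated side (chromosome III, 15798 to 16880, minus strand). An upstream peak was present in every library, with folds of 2.59 and 2.79 in YAC and 3.29 and 3.55 in integrated libraries. Its summit lay 427 bp upstream of the start in both YAC libraries and 466 and 463 bp upstream in integrated libraries. These folds were therefore read outside the window. Whether this peak belongs to CHA1 or to a neighbouring gene was not tested. In YAC libraries it stopped 206 and 209 bp upstream of the start, 6 and 9 bp short of the window. In integrated replicate 2 it ran on to 339 bp inside the gene, and in replicate 1 a separate peak (fold 1.68) covered 52 to 339 bp inside it. In HPRT1, peaks stopped 306 and 325 bp upstream in YAC libraries and ran to 247 and 5 bp inside the gene in integrated libraries. The start of the CHA1 coding region was thus under a peak in both HPRT1 integrated libraries, 1 HPRT1R integrated library and no YAC library. The choice of CHA1, SUL2 and HMX1 for this closer description was made after their values were seen.

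Of the 9 YAC-only calls that both sequences shared, 3 were of genes for cytochrome c or its oxidase. CYC1, which encodes the main form of cytochrome c, had folds of 1.68 and 1.85 in YAC libraries and no peak within 1247 bp of its window in integrated libraries. Its HPRT1 folds were 1.88 and 1.66 in YAC libraries, again with none in integrated libraries. In all 4 YAC libraries the summit lay 234 to 250 bp upstream of the start, in the promoter. COX12, a subunit of cytochrome c oxidase, had folds of 1.82 and 1.58, both from peaks beginning about 30 bp inside the gene. In YAC replicate 1 that peak ran to 928 bp, with its summit at 737 bp, past the end of the gene. It overlapped a downstream peak of integrated replicate 1 (715 to 1276 bp, fold 1.83). In YAC replicate 2 the peak ended at 266 bp and the downstream peak was separate (fold 1.78). COA2 encodes an assembly factor of cytochrome c oxidase. A peak across its start was present in the 4 YAC libraries only, with folds of 1.91 and 1.57 in HPRT1R and 1.61 and 1.74 in HPRT1. A second peak on its downstream side, present in all 8 libraries, reached into the window in the HPRT1R YAC libraries (folds 2.25 and 2.09) and not in the others. ATG33, needed for mitophagy, had the weakest folds of the 9 (1.31 and 1.34). COT1, a vacuolar transporter of zinc and cobalt (1.34 and 1.97), had its peak upstream of the start in YAC replicate 1 and inside the gene in replicate 2. With it, the uncharacterised YLR326W (1.46 and 1.61) completes the 9. Over 41 nuclear genes of the respiratory chain, a list made after these values were seen and no independent support, 29 were marked in all 4 libraries, 3 were YAC-only (QCR8, CYC1 and COX12) and 0 were integrated-only, where the shares over all genes were 1.02 and 1.42%. In HPRT1, 3 were YAC-only (COX4, CYC1 and COX12), where the share over all genes was 0.65%. The third HPRT1R gene, QCR8, was marked in 1 HPRT1 YAC and both HPRT1 integrated libraries.

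The integrated-only genes that both sequences shared had varied roles. AHC2, a subunit of the ADA histone acetyltransferase complex, had folds of 2.24 and 2.03, with no peak within 2432 bp of the window in the YAC libraries, and folds of 2.40 and 2.00 in the HPRT1 integrated libraries. ATF1, which makes acetate esters, had 1.85 and 1.87 (HPRT1 1.97 and 2.08), and its nearest YAC peak was 2500 bp away. VPS53, of the tethering complex at the Golgi, had 2.00 and 1.78. ERG26, a dehydrogenase of ergosterol synthesis, had 1.65 and 1.74, TOM1, a ubiquitin ligase, 1.71 and 1.58, and ERV14, a cargo receptor of COPII vesicles, 1.51 and 1.76. TPO2, a polyamine exporter, had 1.81 and 1.52, EUG1, a protein disulfide isomerase, 1.72 and 1.53, and ROG1, a lipase, 1.61 and 1.6. The peaks of CRR1 (1.83 and 1.99) and UBC12 (1.83 and 1.96) overlapped a YAC peak, 51 and 22 bp from the window. MST27, YDL242W and YOL014W had folds between 1.59 and 1.91. The remaining 3 of the 18 had lower folds.

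Of the 20 genes with the highest lower folds, 10 on each side, the called peak overlapped a peak of the other side at 14. FLC3 (integrated folds 2.85 and 2.86) missed the YAC peak by 1 bp, ECM12 (YAC folds 2.13 and 3.20) the integrated peak by 3 bp and DHH1, an RNA helicase of mRNA decay (2.03 and 2.76), by 7 bp. MFA1, a gene of the a-factor pheromone, was called on the integrated side through a neighbouring peak that began 367 bp downstream of the start in replicate 2 and a little further in replicate 1, and the YAC edge lay 11 bp outside. TAG1 (2.93 and 2.78) and SMK1, a kinase of spore wall formation (2.18 and 3.54), were marked in all 4 HPRT1 libraries. YAR009C (3.87 and 3.48) is part of a Ty1 retrotransposon, whose near-identical copies make its reads uncertain. IFM1, a mitochondrial translation initiation factor, was the exception by distance on the YAC side after LEU2: its folds were 2.09 and 2.35, and the nearest integrated peak was 2521 bp away, yet all 4 HPRT1 libraries marked it (1.94 to 2.41). SSA1, an Hsp70 chaperone, had integrated folds of 2.04 and 2.08 with a YAC peak 182 bp from the window, and was marked in all 4 HPRT1 libraries.

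Across 25 lists of nutrient, carbon, stress and housekeeping pathways with 579 genes, 7 genes were YAC-only (1.21%) and 11 integrated-only (1.9%), beside 1.02 and 1.42% over all genes. Among the 7 were LEU2, SUL2, ARG3, SER3, HMX1 and the ribosomal protein gene RPL18B. The 11 were BAT2, PTR2, MET2, CHA1, URA8, MTH1, ICL1, GDH3, SSA1, MFA1 and SMK1. In 11 of the 25 lists no gene was called, among them lysine, purine and aromatic amino acid synthesis, thiamine, phosphate uptake, glycolysis and the galactose and maltose genes. Ribosomal protein genes were nearly all marked throughout, with 136 of 138 in all 4 libraries. On the carbon side, 15 of 26 hexose transport and sensing genes were marked in none of the 4. MTH1, a repressor of hexose transporter genes, was integrated-only (2.08 and 1.66), as was ICL1, isocitrate lyase of the glyoxylate cycle (1.37 and 1.77). All 4 HPRT1 libraries marked MTH1, and 3 of 4 marked ICL1.

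Counted by region, where overlapping peaks of the 4 libraries were joined, native chromosomes held 3835 regions. Of these, 51 were found in both YAC libraries only (1.33%) and 110 in both integrated libraries only (2.87%). The same call was made in HPRT1 at 8 of the 51 and 23 of the 110, and the opposite call at 2 and 4. The share of all 3835 regions with such calls in HPRT1 is not given here, so these counts cannot be set against it. Regions found in all 4 libraries touched a gene start window in 96.7% of cases, against 86.3% of YAC-only and 70% of integrated-only regions. Of the integrated-only regions, 24 lay inside a gene and away from any start. Regions of either side alone were short, with a median length of 363 bp for YAC-only and 368 bp for integrated-only regions, against 944 bp for regions in all 4.

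Chromosome XI, which holds the insert in integrated strains, had 4 YAC-only and 8 integrated-only regions, of 225 in all. It held 5.87% of all native regions, 7.84% of the YAC-only and 7.27% of the integrated-only regions, so its share of calls was near its share of regions. The strongest region called there was integrated-only and lay at 145851 to 146210, between PIR3 and YKL162C, where no gene is annotated. Its folds were 2.02 and 2.22 in the HPRT1R integrated libraries. The HPRT1 integrated libraries had a peak at the same place with folds of 2.81 and 2.84, and none of the 4 YAC libraries had one. A second integrated-only region next to it, at 144740 to 145510 over the end of the cell wall gene PIR3 (folds 1.70 and 1.71), was absent from all HPRT1 libraries. Whether either region lies near the place of integration was not tested.

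On the synthetic contig more regions were found on the YAC side. The 60 joined regions of the HPRT1R contig comprised 32 found in all 4 libraries, 8 found in both YAC libraries only (13.3%) and 0 found in both integrated libraries only (0%). Of the rest, 7 were found in 3 libraries, 4 of them in all but YAC replicate 1, and 11 in 1, of which 8 were in a YAC library. With single peaks matched at 50% reciprocal overlap, 13 were YAC-only and 5 integrated-only. Read depth on the contig also differed. Relative to the genome-wide expected pileup, that over the insert, here the first 100 kb, was 5.66 and 5.46 in the YAC libraries and 1.04 in both integrated ones. The value of 1.04 lies close to 1, the lowest that the caller's expectation takes, so that the depth of the integrated insert may be lower. Median summit pileups over insert peaks were 860 and 732 reads in YAC libraries and 161 and 166.5 in integrated libraries, while on native chromosomes they were 192 and 182 against 184 and 203. The part of this depth in the number of YAC regions was not tested. Median folds over insert peaks ran the other way, at 1.48 and 1.54 in YAC libraries and 1.87 and 1.77 in integrated libraries. In HPRT1 they were 1.83 and 1.76 in YAC libraries and 1.83 and 1.77 in integrated libraries. These medians are over different sets of peaks, and their difference was not tested.

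The share of the insert under peaks was 45.3 and 42.1% in YAC libraries and 30.7 and 31.1% in integrated libraries. The means were 43.7% ± 2.24 and 30.9% ± 0.301 (SD, n = 2 each). They differed by 12.8 percentage points, more than the spread within either pair. In HPRT1 the difference was 12 points. The difference was found along the whole insert: in each of the 10 bins of 10 kb both YAC values lay above both integrated values. It was largest from 0 to 10 kb, with means of 65.0 and 48.2%, and smallest from 60 to 70 kb, with 41.5 and 38.3%. Most of what was marked in the integrated strains was also marked on the YAC. Of the 26740 bp under peaks in both integrated libraries 82.3% lay under peaks in both YAC libraries, which is 64.4% of the 34179 bp marked in both YAC libraries. A further 7487 bp were marked in both YAC and neither integrated library, against 737 bp in the other direction.

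**Figure D4:**
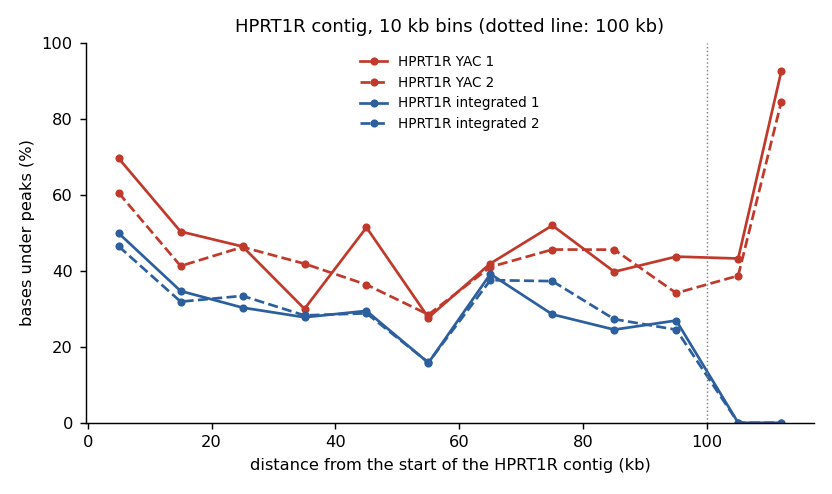
Percentage of bases under peaks in 10 kb bins along the HPRT1R contig (horizontal axis, kb from its start; the last bin is shorter) in the 2 YAC (red) and 2 integrated (blue) libraries. YAC values lie above integrated values in all 10 bins before 100 kb, and integrated libraries have no peak after it.

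Of the 8 YAC-only contig regions, 4 lay at the far end and had the highest folds. They ran from 99759 to 101076 (folds 2.46 and 2.99), from 103430 to 104497 (2.0 and 3.0), from 105207 to 107720 (2.14 and 2.78) and from 110295 to 113922 (2.13 and 2.96). The last integrated peaks ended at 98008 and 96945. Past 100 kb, both YAC libraries had 6847 bp under peaks, 49.2% of that stretch, and both integrated libraries 0 bp. Whether integrated strains carry this stretch was not given in the labels. The other 4 regions lay within the insert and were weak. They were at 5883 to 6261 (1.28 and 1.49), 20302 to 20529 (1.23 and 1.33), 48405 to 48835 (1.53 and 1.41) and 54153 to 55006 (1.37 and 1.48). Whether regions of such folds could be detected at the depth of the integrated libraries was not tested.

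Native coverage differed slightly and the other way. Peaks covered 22.9 and 23.6% of native bases in YAC libraries and 24.2 and 24.7% in integrated libraries, with means of 23.2% ± 0.501 and 24.5% ± 0.365 (SD, n = 2 each). YAC minus integrated was -1.23 percentage points. In HPRT1 it was -2.28 points. For the insert coverage, the native coverage and the ratio of expected pileups (5.56 ± 0.145 against 1.04 ± 0.00333, SD, n = 2 each), the exact two-sided permutation test gave p = 0.333. This is the smallest p that 2 against 2 can give, it was the same after Benjamini-Hochberg adjustment over the 3 tests, and none could pass 0.05. The integrated ratio of 1.04 lies close to the lowest value of the caller's expectation, so its small SD is no measure of equal depth.

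**Figure D5:**
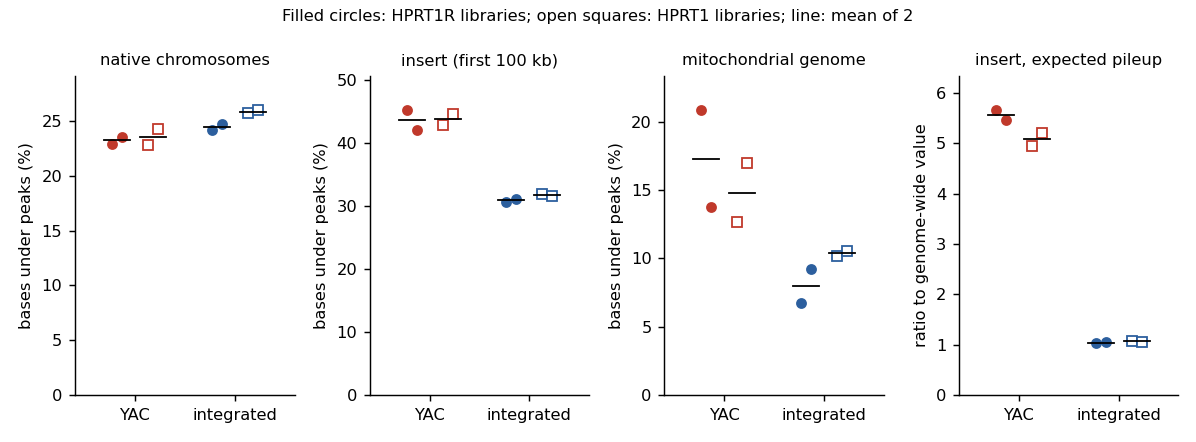
Percentage of bases under peaks on native chromosomes, the insert and the mitochondrial genome, and the expected pileup over the insert relative to the genome-wide value, for each HPRT1R (filled circles) and HPRT1 (open squares) library, with lines at the means of 2. The groups do not overlap for HPRT1R in any panel, with the widest gap in the expected pileup (5.46 and above against 1.04).

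The mitochondrial genome, which gives background and not H3K4me3, differed in the same direction as the insert. The YAC libraries had 36 and 27 peaks there and the integrated libraries 15 and 18. Of 39 joined regions, 7 were found in both YAC libraries only (17.9%) and 0 in both integrated libraries only (0%), and 14 were in all 4. The same call was made in HPRT1 at 3 of the 7, and the share over all 39 regions is not given here. The expected pileup over mitochondrial peaks was 2.09 and 1.83 in YAC libraries, relative to the genome-wide value. In both integrated libraries it was 1, the lowest value that the caller's expectation takes, so that the depth there may be lower and 1 is an upper limit. Peaks covered 20.9 and 13.8% of the mitochondrial genome in YAC libraries and 6.74 and 9.24% in integrated libraries. On this template, which carries no nucleosomes, the YAC libraries thus had both the higher expected pileup and more called peaks. Whether the number of peaks depends on read depth was not tested. The share of such background in the peaks of the insert was not tested either, since the IgG samples were not analysed here.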

How the data were processed

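H3K4me3 CUT&RUN peak lists of 2 HPRT1R YAC and 2 HPRT1R integrated libraries were compared, with 4 HPRT1 lists beside them. Tools named in the submitters' processing notes are MACS2 2.1.0, Bowtie2 2.2.9, SAMtools 1.9, deepTools 3.5.0 and bcl2fastq 2.20, and the build is sacCer3, with the caller's settings and control not given in the sources used here. Each list holds 1 library. The values deposited by the authors are, per peak, a ratio (fold over expectation), the −log10 of a p-value and of a q-value, a score, and a summit offset.

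The 6002 genes and their strands were read from RefSeq's R64 table. Peaks overlapped by 1 bp or more. Pileups were solved from fold and p-value (pseudocount 1), within 0.01 of the deposited −log10 p for at least 99.6% of peaks. The expected genome-wide pileup is the 10th percentile over native peaks. Total reads are unknown. No label calls the replicates separate cultures, so p-values reflect only the spread among these libraries, perhaps a technical one. The contig was taken to end with its last peak (113922 bp) and the insert at 100 kb. Named genes were every called gene of 25 lists, the 10 highest folds per direction, up to 15 calls shared with HPRT1, and the BY4741 markers. The members and lists were chosen with earlier results of these data known; those named outside the rule were chosen after their values were seen. Of the listed symbols, 2 were not found. Some called genes are not reported here. Python 3.11.15, numpy 2.4.6, pandas 2.3.3 and scipy 1.17.1 were used. Scripts were tested on simulated peak lists.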

Additional observations from a re-analysis of the deposited data

Results flagged for a closer look

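At 4 genes the configurations differed in opposite directions in HPRT1R and HPRT1: CHL4, AFT1, AIM25 and YLR358C were marked in both HPRT1R YAC and both HPRT1 integrated libraries and in none of the other 4. The difference between the sequences was not tested. CHL4, a kinetochore gene, had folds of 1.68 and 1.43 in the HPRT1R YAC libraries and 1.59 and 1.77 in the HPRT1 integrated libraries. AIM25 had 1.40 and 1.48, and 1.70 and 1.64, in the same order. AFT1, the activator of iron uptake genes, had 2.24 and 1.68, and 3.05 and 2.76, with a peak on the other side 13 bp from its window. These AFT1 folds came from different peaks. In HPRT1R YAC replicate 1 and both HPRT1 integrated libraries the peak lay upstream and ended at 371851, 371818 and 371831. In HPRT1R YAC replicate 2 it lay inside the gene, at 372032 to 372263. That inner peak had a fold of 1.38 in HPRT1R YAC replicate 1, and no HPRT1 library had it. YLR358C had 2.01 and 2.58, and 2.49 and 2.33, with a peak on the other side 3 bp from its window.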

How the results depend on the processing

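Counts of genes called on one side depended on how a peak at the start was defined. With a −log10 q of at least 5 the same call in HPRT1 was made at 5 YAC-only genes. When lists were trimmed to the same number of peaks, the gene counts were 73 and 58 (61 and 85 as deposited), integrated-only native regions numbered 63 and YAC-only contig regions 14. With a summit within 500 bp after the start, integrated-only genes numbered 210, and the same calls in HPRT1 14 and 10. With single peaks at 50% reciprocal overlap, native regions numbered 157 and 243, contig regions 13 and 5, and integrated-only mitochondrial regions 1. Alternatives chosen after seeing the data gave 40 YAC-only genes, 4 with the same call in HPRT1, when no peak of the other side overlapped, and 34 and 45 genes with a −log10 q of at least 5 in the marked libraries alone. Leaving out 1 library at a time gave 95 to 169 YAC-only and 121 to 304 integrated-only genes, 82 to 152 and 155 to 353 native regions, 7 to 19 and 0 to 1 mitochondrial regions, 9 to 19 and 0 to 4 contig regions, and 10 to 14 and 21 to 25 calls shared with HPRT1. With 1 library left out the rule asks for less, so every gene called as deposited stays and the gene counts could only rise. These counts are therefore no measure of stability. The cause of the changes under the other settings was not tested. Of the 61 and 85 calls, 11 and 11 were kept under all 5 single-gene settings, among them LEU2 and, also called in HPRT1, AHC2, ERG26 and VPS53.

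Replicate numbers did not pair the samples: the deviations of same-numbered libraries correlated at -0.0146 over the log2 folds of 4142 genes. With a replicate block the differences were 12.8 and -1.23 percentage points and 4.52, each with p = 0.5 by the exact paired permutation test (two-sided), the smallest it can give. No paired analysis was possible for the counts, because they come from no test. Depth is known only at peaks: the weakest call shared with HPRT1 on the YAC side, ATG33, had folds of 1.31 and 1.34 at summit pileups of 133 and 116 reads.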

Other observations

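At CUP1, a metallothionein gene present in near-identical tandem copies on chromosome VIII whose reads cannot be assigned to a copy, the highest expected pileup was 2.40 and 2.06 times the genome-wide value in the HPRT1R YAC libraries and 1.66 and 1.76 times in the integrated libraries. In HPRT1 it was 1.95 and 2.07 times in YAC and 1.68 and 1.85 times in integrated libraries. Folds at the peak were similar, from 2.78 to 3.31 over the 8 libraries. This place was chosen after its values were seen, and the number of copies in each strain was not measured.

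Some of the stronger integrated-only regions shared by both sequences lay away from gene starts. One inside IRC8 on chromosome X, at 341802 to 342193, had folds of 2.15 and 2.09 and was also found in both HPRT1 integrated libraries and neither HPRT1 YAC library. It was picked after its values were seen.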
